A study of Mus musculus with 6 samples.

Results

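The 10 genes described here govern how a cell takes up fatty acids and whether it burns them. They are Cd36, Fabp4, Fabp5, Lpl, Gpihbp1 and Pparg, grouped as capillary lipid uptake genes, and Cpt1a, Pdk4, Angptl4 and Acsl1, grouped as fasting-type targets of the PPAR nuclear receptors. They were taken by gene symbol, a rule that uses no measured value, from the 47729 genes counted, and all 10 were among the 14625 genes with enough reads to be tested.

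The counts came from polyA-enriched, strand-specific RNA-seq of lung endothelial cells (ECs) of male mice, with 3 libraries from wild-type mice (WT) and 3 from leene-knockout mice (KO). In KO mice the region matching human LEENE/LINC00520, a long noncoding RNA locus, had been deleted with CRISPR-Cas9 in the whole animal, and the deleted region holds more than 1 noncoding transcript. Both genotypes were on normal chow, aged 14 weeks, and received Angiotensin II (AngII), the hormone used to raise blood pressure, at 1000 ng/kg/min from an osmotic pump for 2 weeks. No library from mice without AngII was analysed here, so each comparison is KO against WT under AngII. The labels describe CD31-enriched cells pooled from 3 mice per group, whereas the study's methods describe a magnetic sort with an antibody to CD144. Whether each library is a separate pool, a separate mouse or part of a pool shared by its group is not given in the sources used here. The p-values therefore measure the spread between these libraries, which may not be that between mice. The deleted transcripts have no row in the counted annotation, so the deletion itself could not be checked in these libraries.

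Fatty acids reach lung and other tissues from the blood, where they circulate in lipoproteins or bound to albumin. Lipoprotein lipase (Lpl), held on the capillary wall by Gpihbp1, frees them from triglyceride, the receptor Cd36 and the binding proteins Fabp4 and Fabp5 carry them across the cell, and the nuclear receptor Pparg controls many of these genes. Inside the cell Acsl1 activates fatty acids to acyl-CoA, Cpt1a admits them to mitochondria, and Pdk4 blocks the entry of pyruvate by phosphorylating the pyruvate dehydrogenase complex. In fasting, PPAR activity together with glucocorticoid and FoxO signalling is known to induce Pdk4 and Angptl4, a secreted inhibitor of lipoprotein lipase.

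Promoter sequence is given for Pdk4, Cpt1a and Cd36, since these stand for a fasting-type gene that was lower in every KO library, a fasting-type gene that was nearly level, and the most abundant uptake gene. RefSeq windows (GRCm38.p6) of 210 bases, from 250 to 41 bases before an annotated start, were at hand for 5 of the 10 genes (Cd36, Pparg, Cpt1a, Pdk4 and Acsl1), with 8 windows in all. They were searched on both strands for AGGTCA, which reads TGACCT on the other strand, the core letters bound by PPARs and many other nuclear receptors, and the match is set in capitals.
Pdk4, chr6:5496319-5496528, minus strand: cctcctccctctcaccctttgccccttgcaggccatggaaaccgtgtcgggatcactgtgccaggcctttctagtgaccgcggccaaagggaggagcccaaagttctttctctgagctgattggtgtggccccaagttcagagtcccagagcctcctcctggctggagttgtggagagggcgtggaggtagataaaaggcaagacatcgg
Cpt1a, chr19:3323051-3323260, plus strand: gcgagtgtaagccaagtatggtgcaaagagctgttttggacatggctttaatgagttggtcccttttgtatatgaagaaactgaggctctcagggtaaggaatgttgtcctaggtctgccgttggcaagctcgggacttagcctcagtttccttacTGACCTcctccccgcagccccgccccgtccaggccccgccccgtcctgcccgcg
Cd36, chr5:17835937-17836146, minus strand: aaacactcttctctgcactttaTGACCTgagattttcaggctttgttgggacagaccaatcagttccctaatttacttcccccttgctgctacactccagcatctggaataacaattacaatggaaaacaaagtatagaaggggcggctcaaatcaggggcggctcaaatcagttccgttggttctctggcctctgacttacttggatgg
The letters lay 94 bases before the start of Cpt1a and 228 bases before that of Cd36, and the window of Pdk4 held none. This Cd36 window lies inside the counted gene, since Cd36 has several starts, and overlaps no counted exon. Over 32851 mouse promoter windows of this length, 12% held AGGTCA, so a match is common. The letters AGAACA, which read TGTTCT on the other strand, part of the glucocorticoid receptor element, were in 13.8% of all windows, and TTATGTAA, which reads TTACATAA on the other strand, an element of the PAR bZIP clock factors, in 0.709%. Neither was in any of the 8 windows, which says only that these letters are not there.

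Each library held 24464324 to 35184063 counted reads, of which mitochondrial genes took 37.4% to 54.45%. Levels are given in CPM, that is reads per 1000000 reads of a library size scaled by TMM, with factors from 0.8735 to 1.374, the latter in WT replicate 1. The ECs carried their defining markers, with Pecam1 (CD31) at 312.6 to 582.5 CPM and Cdh5 (CD144) at 177.7 to 753.1 CPM, but genes of other lung cells were abundant. The summed CPM of 8 alveolar type II cell genes was 5579, 52500 and 16150 across WT libraries, next to 41300, 50310 and 40880 across KO libraries, against 2320 to 4226 for 15 endothelial genes. All 8 alveolar type II genes had a fitted fold change above 0, with a median log2 value of 0.79, and none passed the test. WT replicate 1 thus stood apart as the library with the fewest alveolar reads, and WT replicate 2 resembled the KO libraries in this respect. In bulk samples such as these, fewer cells of a type and less RNA per cell cannot be told apart.

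Of the 10 genes, none passed the test between KO and WT when Benjamini-Hochberg adjustment was applied to the p-values of edgeR's quasi-likelihood fit at a threshold of 0.05, beside 16 of all 14625 genes, or 0.109%. Pdk4 alone had an unadjusted p under 0.05, that is 1 of 10 genes beside 10.3% of all genes, and it was in the direction lower in KO, which held for 4.68% of all genes, while 5.62% were higher in KO. Pdk4 was also the only one of the 10 whose WT and KO libraries did not overlap, against 17.8% of all genes. DESeq2, a second count test, called 1 of the 10 genes, again Pdk4, beside 1.21% of its 15470 genes. A count of 1 among 10 genes is too small to set the group apart from these shares. The median log2 fold change (KO minus WT) was -0.06 over the 10 genes and 0.03 over all genes tested.

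**Figure D1:**
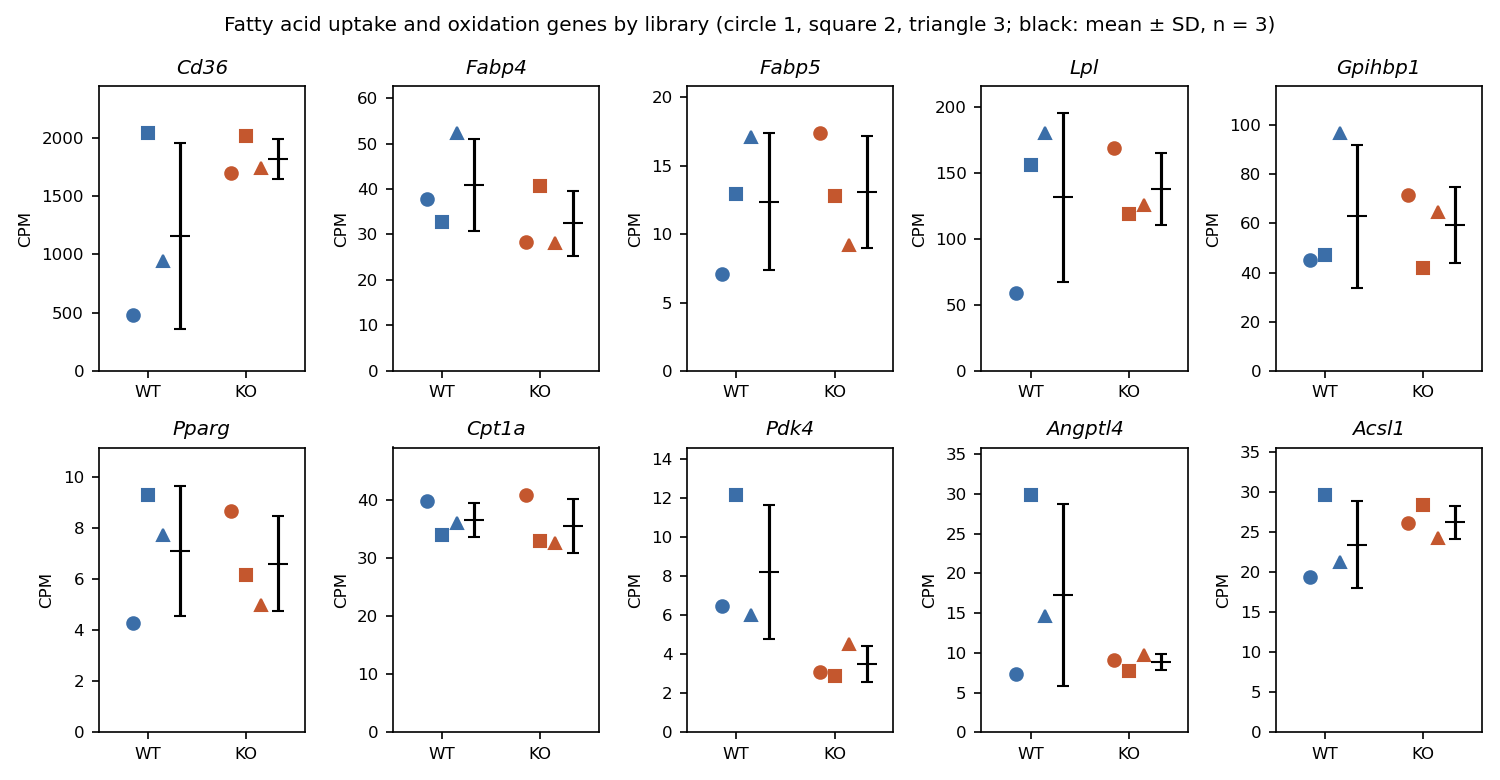
Level of each gene in CPM (vertical axes, each from 0) in the 3 WT libraries (blue) and the 3 KO libraries (orange), with circles, squares and triangles for replicates 1, 2 and 3 and black bars for the mean ± SD. Pdk4 is the only panel in which the KO points, 2.87 to 4.55 CPM, all lie under the WT points, 5.99 to 12.2 CPM.

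**Figure D2:**
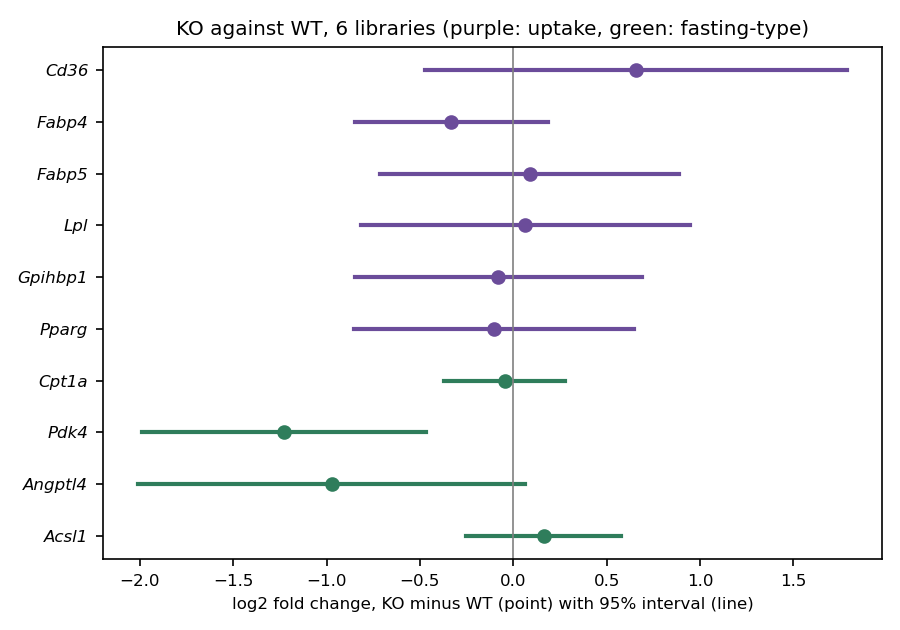
Fitted log2 fold change of KO against WT for each gene (point) with its 95% interval (line), uptake genes in purple and fasting-type genes in green. The interval of Pdk4, from -1.99 to -0.47, is the only one that does not include 0, and that of Cpt1a, from -0.37 to 0.28, is the narrowest.

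Per length, that is in CPM per kilobase of exon, Cd36 stood far above the rest, at a mean of 413.8 over the 6 libraries with a range of 133.9 to 567.1. Gpihbp1 followed at 23.9 CPM per kilobase and Lpl at 19.8, and their ranges overlapped, with Gpihbp1 higher in 4 of 6 libraries. Cpt1a (8.37) and Fabp4 (8.16) were also neighbours whose ranges overlapped. Below them, at mean levels of 3.97, 3.57, 2.63, 2.33 and 1.67 CPM per kilobase, came Angptl4, Fabp5, Acsl1, Pparg and Pdk4, and each overlapped the next in the order. The order of these 5 differed by genotype, since Angptl4 was at 5.26 CPM per kilobase in WT but at 2.68 in KO, below Fabp5 (3.67) and Acsl1 (2.78), and Pdk4 was at 2.34 in WT, near Pparg (2.41), and at 0.999 in KO. By this length the uptake and fasting-type genes were mixed over all 6 libraries. Only the gap between Cd36 and Gpihbp1 was crossed by no library. The length is that of all annotated exons of a gene, here and in later values per length. It was 4489 bases for Fabp4 and 3567 for Fabp5, whose longest transcripts have 896 and 987 bases. For Cpt1a these were 4300 and 4317 bases. Per transcript length Fabp4 and Fabp5 would stand higher, so the order below Cd36 depends on the length used.

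Cd36 (ENSMUSG00000002944, chr5:17781690-17888801, minus strand, GRCm38) encodes the fatty acid translocase of capillaries, macrophages and other cells. Its level was 480.5, 2036 and 944.8 CPM across WT libraries, against 1699, 2015 and 1738 CPM across KO libraries. The 3 KO libraries lay close together, WT replicate 2 lay level with them, and the other two WT libraries were lower. The means were 1154 ± 798 CPM in WT, compared with 1817 ± 172 CPM in KO (SD, n = 3), a log2 fold change of 0.66 with a standard error of 0.49 and a 95% interval of -0.47 to 1.79 (adjusted p = 0.64, edgeR). The difference was smaller than the spread of the WT libraries. Without WT replicate 2 it was 1.32 and without WT replicate 1 it was 0.28 on the log2 scale, so the value rests on which WT library is kept. Cd36 followed the alveolar type II genes from library to library, as the plot of Cd36 with that list shows, and with the mean of 5 alveolar type II genes as a covariate its log2 fold change was 0.04. The part of those cells in the difference was not tested further.

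Lpl (ENSMUSG00000015568, chr8:68880491-68907448, plus strand), the lipase that hydrolyses lipoprotein triglyceride, was at 59.1, 155.8 and 179.8 CPM across WT libraries, against 168.7, 118.6 and 125.6 CPM across KO libraries. WT replicate 1 was the lowest library and WT replicate 3 the highest, so the KO values lay within the WT range. The means were 131.6 ± 63.9 CPM in WT, and 137.6 ± 27.1 CPM in KO, and the log2 fold change of 0.07 had a 95% interval of -0.82 to 0.95 (adjusted p = 0.96, edgeR). The summed level of 8 fibroblast and lipofibroblast genes, cells known to make Lpl in lung, was 334, 725.1 and 720.6 CPM in WT, against 656.5, 500.9 and 707.7 CPM in KO, and it was lowest in WT replicate 1 as was Lpl. The sum was highest in WT replicate 2, whereas Lpl was highest in WT replicate 3.

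Gpihbp1 (ENSMUSG00000022579, chr15:75596628-75599481, plus strand) is the capillary endothelial protein that carries Lpl to the lumen, and so is the gene of the 10 most closely tied to ECs. Its level was 45.2, 47.0 and 96.5 CPM across WT libraries, against 71.6, 41.9 and 64.7 CPM across KO libraries. WT replicate 3 was the highest and KO replicate 2 the lowest, and the groups overlapped. The means of 62.9 ± 29.1 CPM in WT, compared with 59.4 ± 15.5 CPM in KO gave a log2 fold change of -0.08 with a 95% interval of -0.85 to 0.69 (adjusted p = 0.944, edgeR). The summed level of the 15 endothelial genes was 2320, 2843 and 4176 CPM in WT, and 4226, 2645 and 3446 CPM in KO. The direction of Gpihbp1 turned on leaving out WT replicate 3 and on leaving out KO replicate 2, and the range over the 6 libraries left out in turn was -0.29 to 0.35 on the log2 scale.

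**Figure D3:**
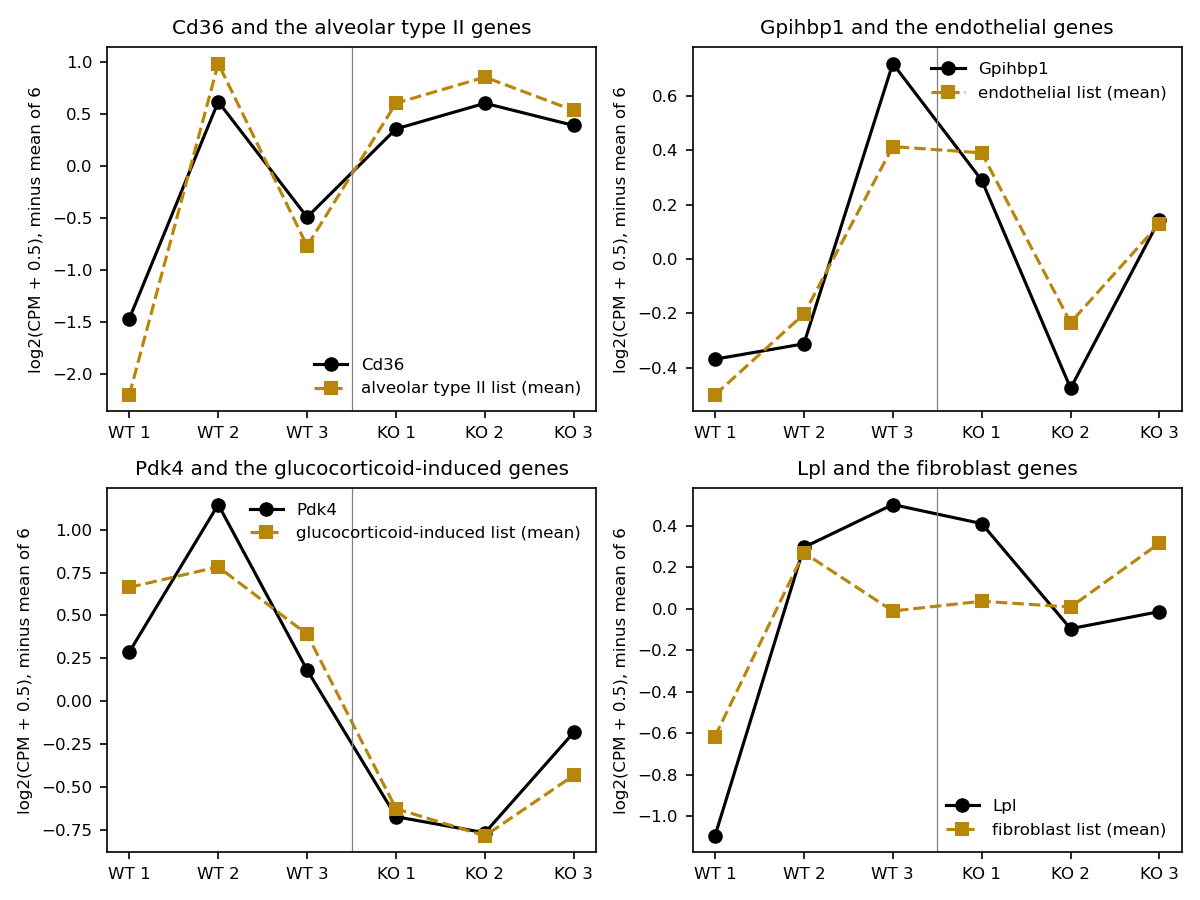
Level of 4 genes (black circles) and of a gene list set beside each (gold squares, mean over the list) in each library, as log2(CPM + 0.5) minus the mean of the 6 libraries, with a grey line between WT and KO. Lpl and the fibroblast genes are both lowest in WT replicate 1, but Lpl is highest in WT replicate 3 and the list mean in KO replicate 3. The pairs were chosen after their values were seen. Cd36 and the alveolar type II genes are both lowest in WT replicate 1, at 480.5 CPM and a summed 5579 CPM, while Pdk4 and the glucocorticoid-induced genes are lower in every KO library than in any WT library.

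Fabp4 (ENSMUSG00000062515, chr3:10204088-10208576, minus strand), the fatty acid binding protein of capillary ECs, adipocytes and macrophages, was at 37.7, 32.7 and 52.2 CPM across WT libraries, against 28.3, 40.8 and 28.2 CPM across KO libraries. KO replicates 1 and 3 were below all WT libraries and KO replicate 2 was inside the WT range. The log2 fold change was -0.33 with a 95% interval of -0.85 to 0.18 (adjusted p = 0.617, edgeR). Fabp4 was below 0 in each of the 19 alternative settings, and an unadjusted p under 0.05 was reached in 2 of them.

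Fabp5 (ENSMUSG00000027533, chr3:10012548-10016607, plus strand) is the neighbour of Fabp4, 187481 bases away, and encodes a related binding protein. Its level was 7.10, 12.9 and 17.1 CPM in WT, against 17.4, 12.8 and 9.18 CPM in KO. The groups covered nearly the same range, and the log2 fold change was 0.09 with a 95% interval of -0.71 to 0.89 (adjusted p = 0.94, edgeR). The value is uncertain in another way, since 41.3% of its longest transcript is shared at an identity of 96% or more with the gene copies Gm14328 and Gm6166, and reads that fit several places were dropped before counting.

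Pparg (ENSMUSG00000000440, chr6:115360951-115490399, plus strand), the nuclear receptor that drives Fabp4, Cd36 and Lpl in fat cells and macrophages, was at 4.31, 9.31 and 7.73 CPM in WT, against 8.68, 6.18 and 5.002 CPM in KO. WT libraries held both the highest and the lowest value. The log2 fold change was -0.10 with a 95% interval of -0.85 to 0.65 (adjusted p = 0.924, edgeR). Of the sister receptors, Ppard was at 14.7 ± 0.68 CPM for WT, as against 12.8 ± 0.50 CPM for KO, a log2 fold change of -0.20 (adjusted p = 0.59, edgeR) and groups that did not overlap. Ppara, the receptor that drives the fasting response in liver, was at 0.37 to 0.64 CPM. Per length, Ppard was at 2.97 and Pparg at 2.33 CPM per kilobase, against 0.13 for Ppara.

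Pdk4 (ENSMUSG00000019577, chr6:5483351-5496309, minus strand) phosphorylates pyruvate dehydrogenase and had the largest fitted fold change of the 10 genes. Its level was 6.49, 12.2 and 5.99 CPM across WT libraries, against 3.10, 2.87 and 4.55 CPM across KO libraries, from 265, 414 and 128 reads in WT and 72, 78 and 132 reads in KO. Every KO library was below every WT library, and WT replicate 2 was the highest of all. The means were 8.21 ± 3.42 CPM in WT, compared with 3.51 ± 0.91 CPM in KO (SD, n = 3), a log2 fold change of -1.23 with a standard error of 0.33 and a 95% interval of -1.99 to -0.47. The unadjusted p was 0.00605 and the adjusted p 0.307 in edgeR's quasi-likelihood test, and Pdk4 ranked 287 among the 14625 genes by p. Pdk4 therefore did not pass the test. The adjusted p was 0.039 in DESeq2 and ranged from 0.00986 to 0.731 over the 19 alternatives, while the log2 value stayed between -1.53 and -0.87 and the unadjusted p under 0.05 in 19 of 19. Without WT replicate 2 the log2 fold change was -0.87 (adjusted p = 0.0951, edgeR).

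Other gene groups differed between the same libraries as Pdk4. Of 7 glucocorticoid-induced genes, a list drawn up with earlier results of these data known, all 7 were lower in every KO library than in any WT library, which held for 9.2% of all genes, and the median log2 fold change was -1.22. One of them, Tsc22d3, passed the test (log2 fold change -1.56, adjusted p = 0.0348, edgeR). Their summed level was 635, 716.2 and 555.5 CPM in WT, and 289.6, 286.2 and 339.5 CPM in KO, and like Pdk4 it was highest in WT replicate 2 and, among the KO libraries, highest in KO replicate 3. Of 6 clock output genes of the PAR bZIP and REV-ERB families, 5 were higher in every KO library than in any WT library, which held for 8.59% of all genes, and Dbp passed the test (log2 fold change 3.15, adjusted p = 0.0188, edgeR). Whether either group has a part in the level of Pdk4 was not tested, and the time of day at which tissue was taken is not given in the sources used here.

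Angptl4 (ENSMUSG00000002289, chr17:33773750-33781575, minus strand), which switches off lipoprotein lipase, was at 7.32, 29.9 and 14.7 CPM across WT libraries, against 9.07, 7.69 and 9.69 CPM across KO libraries. WT replicates 2 and 3 were above all KO libraries and WT replicate 1 was below them, so the groups overlapped. The means were 17.3 ± 11.5 CPM in WT, against 8.82 ± 1.03 CPM in KO, a log2 fold change of -0.97 with a standard error of 0.45 and a 95% interval of -2.01 to 0.06 (adjusted p = 0.502, edgeR). The size rested on WT replicate 2, without which the log2 fold change was -0.34, while without WT replicate 1 it was -1.35. Angptl4 was highest in the WT library with the most alveolar type II reads, and the KO libraries, with 40880 to 50310 CPM of those genes, had 7.69 to 9.69 CPM of Angptl4. With the alveolar covariate the log2 fold change was -1.55 and the adjusted p 0.018 (edgeR), the only setting in which Angptl4 passed the test. The part of alveolar cells in the level of Angptl4 was not tested further.

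**Figure D4:**
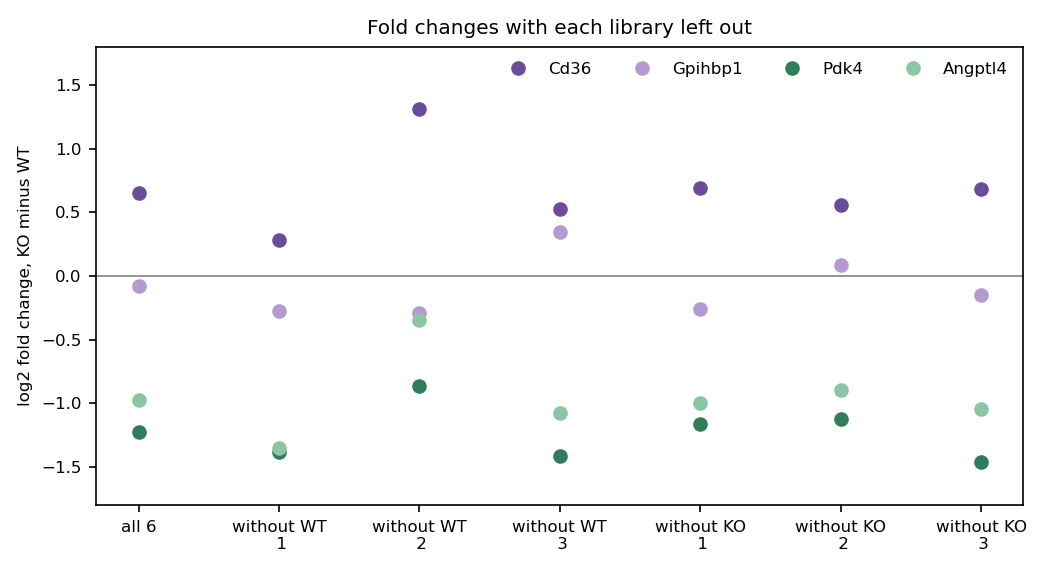
Log2 fold change of KO against WT (vertical axis) for Cd36, Gpihbp1, Pdk4 and Angptl4 with all 6 libraries and with each library left out in turn (horizontal axis). Pdk4 stays between -1.46 and -0.87, Angptl4 moves to -0.34 and Cd36 to 1.32 without WT replicate 2, and Gpihbp1 lies on both sides of 0.

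Cpt1a (ENSMUSG00000024900, chr19:3323301-3385732, plus strand), the gate of long-chain fatty acids into mitochondria and a classical PPAR target in liver, was nearly level. It was at 39.7, 33.9 and 36.1 CPM across WT libraries, against 40.8, 32.9 and 32.6 CPM across KO libraries, and the highest and the 2 lowest values were KO libraries. The log2 fold change was -0.05 with a standard error of 0.14 and a 95% interval of -0.37 to 0.28 (adjusted p = 0.919, edgeR). This interval does not include a change the size of that fitted for Pdk4 or Angptl4, but whether Cpt1a differs from them was not tested. Its muscle relative Cpt1b had reads in 1 library, and the brain form Cpt1c was at 1.22 ± 0.68 CPM in WT, compared with 1.02 ± 0.55 CPM in KO.

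Acsl1 (ENSMUSG00000018796, chr8:46471041-46536051, plus strand), the acyl-CoA synthetase induced by PPARs in liver and fat, was at 19.4, 29.6 and 21.3 CPM in WT, against 26.1, 28.4 and 24.3 CPM in KO. All KO libraries lay above WT replicates 1 and 3 and below WT replicate 2. The log2 fold change was 0.16 with a 95% interval of -0.26 to 0.58 (adjusted p = 0.752, edgeR). Among the library values of the 10 genes, the closest pair was Cd36 with Acsl1 (Pearson r = 0.9314 of log2 CPM over 6 libraries), and Pdk4 with Angptl4 had an r of 0.7928. These are descriptions over libraries that share their depth and cell mixture.

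Uptake genes were then set against fasting-type genes within each library. The mean log2 CPM of the 6 uptake genes was 5.08, 5.96 and 6.12 in WT and 6.06, 5.82 and 5.68 in KO. That of the 4 fasting-type genes was 3.79, 4.62 and 4.01 in WT and 3.72, 3.59 and 3.78 in KO. Uptake genes thus varied most within WT, where replicate 1 was lowest, and the fasting-type mean lay slightly lower in each KO library than in WT replicate 1, the lowest WT library, although Cpt1a, Angptl4 and Acsl1 each overlapped between the groups. The summed CPM of the 4 genes overlapped as well, at 79.04 in KO replicate 1 against 72.92 in WT replicate 1. The uptake mean minus the fasting-type mean was 1.29, 1.34 and 2.11 in WT and 2.34, 2.23 and 1.91 in KO, with means of 1.58 ± 0.46 and 2.16 ± 0.23 (log2 units, SD, n = 3). The groups overlapped, because WT replicate 3 lay above KO replicate 3. The mean difference between genotypes was 0.58, being a change of 0.13 in the uptake mean minus a change of -0.45 in the fasting-type mean, and it ranged from 0.44 to 0.85 when each library was left out. No test was made of this score. By the median log2 fold change, the uptake genes were at -0.01 and the fasting-type genes at -0.51, where Pdk4 and Angptl4 were low and Cpt1a and Acsl1 were near 0. The 4 fasting-type genes therefore did not share a direction.

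The other genes of the pathway were counted from 10 lists of 136 distinct genes, of which 124 were tested. None passed the test (adjusted p, edgeR), 7 were higher and 5 lower at an unadjusted p under 0.05, and these shares lie near those of all genes. DESeq2 called 2 of them, Vldlr higher (adjusted p = 0.0316) and Lipe lower (adjusted p = 0.000496), beside 1.21% of its 15470 genes. The likelihood ratio test, total counts alone and no filter on low counts called the same 2. Without WT replicate 2 edgeR called 7 of the pathway genes, beside 791 of all 14950 genes tested. In the lists nearest to the uptake genes, 14 tested transport and binding genes had a median log2 fold change of 0.11 and 11 tested lipolysis and receptor genes one of 0.49. Slc27a1, a fatty acid transport protein, was at 2.37, 7.93 and 4.21 CPM in WT, and 11.7, 14.2 and 7.73 CPM in KO (log2 fold change 1.21, adjusted p = 0.423, edgeR). Vldlr, the very low density lipoprotein receptor and itself a PPAR target, was at 6.34, 19.4 and 9.18 CPM in WT, against 29.4, 30.5 and 27.7 CPM in KO (log2 fold change 1.33, adjusted p = 0.327, edgeR). Both had their highest level in KO replicate 2 and, like Cd36, their lowest in WT replicate 1. With the alveolar covariate the log2 fold changes were 0.63 for Slc27a1 and 0.81 for Vldlr, and the part of alveolar cells was not tested further.

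Lipe, the hormone-sensitive lipase that empties lipid droplets, went the other way. It was at 80.6, 58.8 and 64.1 CPM in WT, compared with 35.0, 31.7 and 38.3 CPM in KO (log2 fold change -0.95, adjusted p = 0.107, edgeR). Lipe is also 1 of 7 adipocyte markers, of which the 6 tested were below 0 (median log2 fold change -0.66), with a summed level of 102.2 to 123.8 CPM in WT, and 63.1 to 78.9 CPM in KO. Lipe itself and Cfd made up most of that sum, so the sum is no measure of fat cells apart from Lipe. Cfd overlapped between the groups, at 12.6, 28.1 and 37.2 CPM in WT against 18.1, 33.1 and 20.9 CPM in KO. In 4 of the 6 tested, Lipe among them, every KO library was below every WT library, beside 9.2% of all genes. The defining markers were low. Adipoq, at 2.01, 3.82 and 6.84 CPM in WT against 2.11, 5.996 and 3.69 CPM in KO, overlapped between the groups, whereas the KO range of Plin1, 0.48 to 1.48 CPM, lay under its WT range of 1.64 to 2.15 CPM. Lep had too few reads to be tested. The part of fat cells in the levels of Fabp4, Pparg, Pdk4 or Angptl4, which fat cells also express, was not tested. Of 7 genes of cardiomyocytes, cells rich in Pdk4, 6 were below 0. Their summed level was 12.6, 55.7 and 42.0 CPM in WT, compared with 23.3, 18.8 and 17.2 CPM in KO, and the groups overlapped. The part of cardiomyocytes in the level of Pdk4 was not tested.

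**Figure D5:**
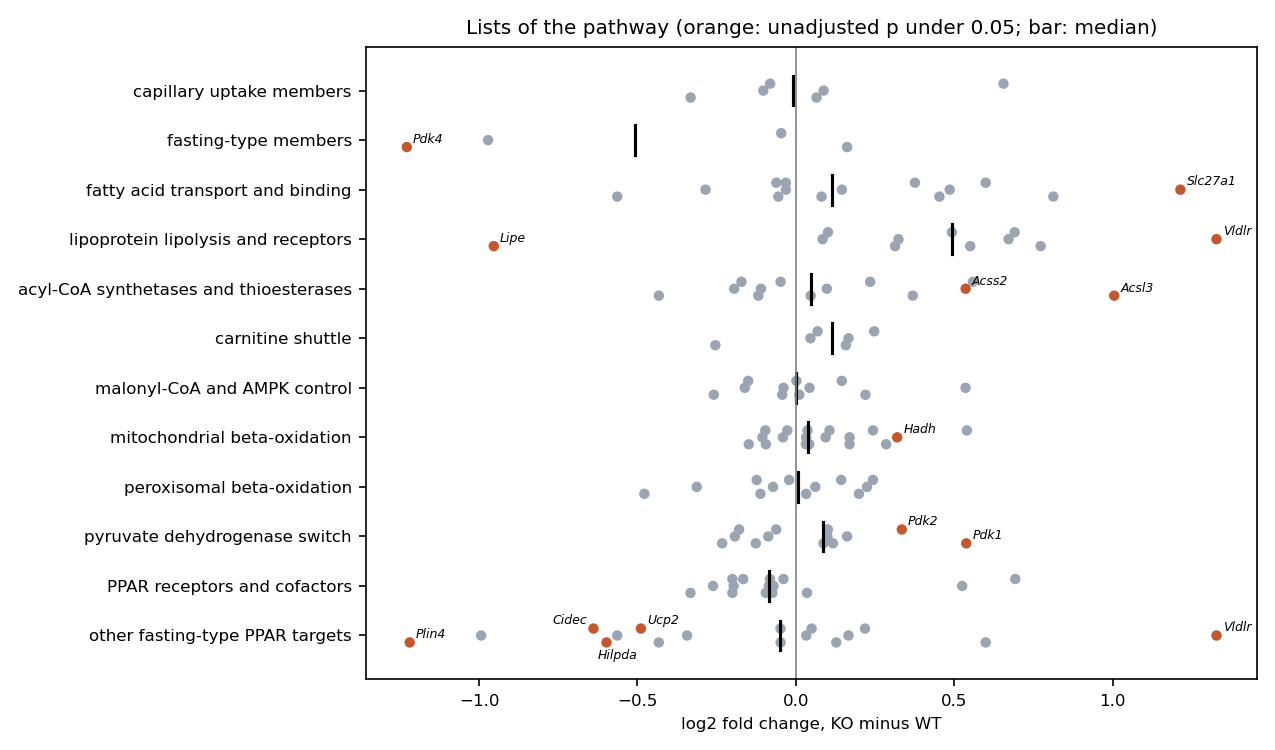
Log2 fold change of KO against WT (horizontal axis) for each tested gene of the uptake and fasting-type groups and of the 10 pathway lists (rows), with genes at an unadjusted p under 0.05 in orange and the median of each list as a black bar. The oxidation lists sit around 0, with 18 mitochondrial beta-oxidation genes between -0.15 and 0.54, while Pdk4 and Plin4 lie to the left and Vldlr and Slc27a1 to the right.

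The lists of enzymes that act after Cpt1a had medians near 0. All 18 mitochondrial beta-oxidation genes were tested (median log2 fold change 0.04), and 1 of them, Hadh, was higher at an unadjusted p under 0.05 (log2 fold change 0.32, adjusted p = 0.468, edgeR). The medians were 0.01 over 12 peroxisomal beta-oxidation genes, 0.11 over 6 tested genes of the carnitine shuttle and below 0.01 over 11 genes of malonyl-CoA and AMPK control, with none at an unadjusted p under 0.05. Of 13 tested acyl-CoA synthetases and thioesterases, with a median of 0.05, the relatives of Acsl1 that reached it were Acsl3 (log2 fold change 1.01, adjusted p = 0.477, edgeR, and 0.42 with the alveolar covariate) and the acetate enzyme Acss2 (0.54, adjusted p = 0.365, edgeR).

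The kinases of the pyruvate dehydrogenase complex did not all go the way of Pdk4. Pdk1 was at 16.03, 14.0 and 14.9 CPM in WT, and 22.1, 22.5 and 20.7 CPM in KO (log2 fold change 0.54, adjusted p = 0.259, edgeR). Pdk2 was at 14.5, 15.3 and 15.5 CPM in WT, against 18.7, 18.1 and 20.3 CPM in KO (0.33, adjusted p = 0.434, edgeR). In both, the lowest KO value exceeded the highest WT value, opposite to Pdk4, a separation found in 8.59% of all genes. Pdk3 overlapped between the groups (-0.19, adjusted p = 0.659, edgeR). Per length, the mean level of Pdk4 was 2.34 CPM per kilobase in WT and 0.999 in KO, that of Pdk1 1.93 and 2.80, that of Pdk2 4.76 and 6.003 and that of Pdk3 3.89 and 3.41. Pdk4 was thus the lowest of the 4 kinases per length in KO, and in WT it was lower than Pdk2 and Pdk3. Over the 13 genes of the pyruvate dehydrogenase list, which does not hold Pdk4, the median log2 fold change was 0.09. Pdk1 and Pdk2 were the 2 of these with a KO range wholly over the WT range. In 2 others the KO range lay wholly under the WT range, beside 9.2% of all genes.

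Other fasting-type PPAR targets did not share a direction either. Of 21 listed, 17 were tested (median log2 fold change -0.05), and 4 were lower and 1 higher at an unadjusted p under 0.05, beside 4.68% and 5.62% of all genes, while in 6 every KO library was below every WT library, beside 9.2% of all genes. The lower ones were the lipid droplet proteins Plin4 (-1.22, adjusted p = 0.412), Cidec (-0.64, adjusted p = 0.304) and Hilpda (-0.60, adjusted p = 0.388) and the mitochondrial carrier Ucp2 (-0.49, adjusted p = 0.408), all by edgeR, and the higher one was Vldlr. Cidec is also 1 of the 7 adipocyte markers, and the part of fat cells in these levels was not tested. Plin4 was at 2.03, 1.12 and 2.48 CPM in WT, compared with 0.73, 0.63 and 1.04 CPM in KO. Hilpda was at 90.9, 77.8 and 114.3 CPM in WT, and 66.5, 50.1 and 70.4 CPM in KO, and its groups did not overlap either. The liver targets Cyp4a10 and Cyp4a14 had no read in any library. Over 15 tested receptors and cofactors the median was -0.09, with none at an unadjusted p under 0.05. Of these, 12 were below 0 and 3 above 0. The KO range lay wholly under the WT range in 4 of the 15, beside 9.2% of all genes. It lay wholly over the WT range in 1, beside 8.59% of all genes.

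Cells other than ECs also express uptake genes, and their marker lists were measured beside them. General capillary genes (7 of 7 above 0, median log2 fold change 0.28) and aerocyte genes (6 of 7, median 0.39) were summed at 1385 to 2083 and 1411 to 1828 CPM in WT, against 1467 to 2136 and 1368 to 2091 CPM in KO. Alveolar macrophage genes, from cells that express Fabp4, Fabp5, Cd36 and Pparg, were at 193.9, 461.4 and 452.3 CPM in WT, compared with 582.8, 257.2 and 270.8 CPM in KO, with a median of -0.02. Like Pparg, Fabp5 and Lpl they were lowest in WT replicate 1 and, among the KO libraries, highest in KO replicate 1. Their sum includes Car4, which is also in the aerocyte list, at 39.5 to 102.4 CPM in WT and 57.8 to 124.5 CPM in KO. Macrophage and monocyte genes, some of which alveolar type II cells also express, were summed at 1474 to 13100 CPM in WT, and 11510 to 13440 CPM in KO, with a median of 0.36. Nearly all of that sum was Lyz2, at 1428, 13010 and 4549 CPM in WT, and 11520, 13360 and 11420 CPM in KO. The sum is therefore no measure of the other macrophage genes. The median over the endothelial genes was 0.08 and that over the fibroblast genes 0.21, and the part of any of these cells in the uptake genes was not tested.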

How the data were processed

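RNA of lung ECs was sequenced from WT and KO mice given AngII, with 3 libraries per genotype grouped by their titles. The authors deposited raw counts per gene. The file headers give featureCounts 2.0.0 with reverse-strand counting and the Ensembl release 84 annotation of GRCm38, and the submitters' processing notes name mm10, STAR 2.5.4b and bcl2fastq 2.18. Reads with several alignments were dropped, so near-identical copies are uncertain. Symbols were matched for 47224 of 47729 genes. Totals per library were 24464324 to 35184063, which sets the counting error.

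Genes were filtered with filterByExpr, scaled by TMM and tested with edgeR 4.0.16 (glmQLFit and glmQLFTest, genotype as the only term, Benjamini-Hochberg adjustment, threshold 0.05) in R 4.3.3. Intervals are 95%. For scores a prior count of 0.5 was used. Alternatives used DESeq2 1.42.0, limma 3.58.1 (voom), other scalings and filters, a replicate block, an alveolar covariate and each library left out. With 3 libraries against 3, an exact permutation test cannot go below 0.1.

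All 10 genes are named. Of each list the up to 3 tested genes with the lowest p could be named, those at an unadjusted p under 0.05 in the carnitine, pyruvate dehydrogenase and PPAR lists, those past the threshold, the first 2 of each marker list and, per gene, the 3 genes nearest in pattern. Sister genes such as Ppara, Pdk3, Cpt1b, Cyp4a10 and Lep were added after their values were seen. One gene of the PPAR receptor and cofactor list is not reported here and was left out of its counts. The genes and lists were chosen with earlier results of these data known.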

Additional observations from a re-analysis of the deposited data

How the results depend on the processing

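Of 190 values of the 10 genes under 19 alternatives each, 170 kept their direction and side of the threshold, 5 passed it and 15 turned. Pdk4, Angptl4, Cd36 and Fabp4 kept their direction in all 19. Of 456 values of 24 other named genes, 389 kept both, 57 passed the threshold, 10 no longer did and none turned. The number of the 10 genes called was 0 by edgeR's quasi-likelihood test, also with each library left out, and 1 with DESeq2, the likelihood ratio test, total counts alone and no filter on low counts (Pdk4 in each) and 1 with the alveolar type II covariate (Angptl4). At an unadjusted p under 0.05 the number was 1, and 2 (Pdk4 and Angptl4) with DESeq2, the likelihood ratio test, upper-quartile scaling, total counts alone, no filter and the alveolar covariate. It was 1 to 4 with each library left out, 4 of them (Acsl1, Cd36, Fabp4 and Pdk4) without WT replicate 2. In that setting 3188 of all 14950 genes tested had an unadjusted p under 0.05, beside 1506 of 14625 with all libraries (edgeR). The cause of these changes was not tested.

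Over all genes tested, 16 were called (5 higher and 11 lower), 187 with DESeq2, 26 with limma-voom, 211 with the likelihood ratio test, 26 with RLE scaling, 31 with upper-quartile scaling, 123 with total counts alone (61 higher and 62 lower), 152 with no filter and 49 with the alveolar covariate. Total counts alone moved the median log2 fold change of all genes by -0.17. With each library left out the count was 0 to 791, with 791 without WT replicate 2 (660 higher) and 0 without any 1 KO library, where 986 to 1112 genes had an unadjusted p under 0.05 in edgeR. Leaving libraries out also gave Fabp5 -0.20 to 0.38, Lpl -0.29 to 0.35, Gpihbp1 -0.29 to 0.35, Pparg -0.38 to 0.12 and Cpt1a -0.18 to 0.012 on the log2 scale. Fabp5 was at -0.013 with total counts alone and -0.21 with the alveolar covariate, under which Lpl was at -0.38, Cpt1a at 0.053 and Acsl1 at -0.077.

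Replicate numbers were not used to pair the libraries in the main test. Same-numbered WT and KO libraries had correlations of deviations of -0.07, 0.19 and 0.01. With 3 libraries a group that also differ in cell mixture, these values cannot show whether same-numbered libraries were prepared together. With the replicate block edgeR called 0 genes, 1776 of them at an unadjusted p under 0.05, and Pdk4 was at -1.18 (adjusted p = 0.345). Not every library went best with its own number.

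With 3 libraries a group, the 95% intervals of Cd36, Fabp4, Fabp5, Lpl, Gpihbp1, Pparg, Pdk4 and Angptl4 each span more than 1 log2 unit. This limits the precision of these fold changes.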

Other observations

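For each of the 10 genes, the 3 tested genes with the most similar library pattern were named by Pearson's r of log2 CPM over the 6 libraries, as a description. Beside Cd36 stood Enpep (r = 0.9997), Cxcl15 (0.9996) and Tpp1 (0.9994), of which Cxcl15 is a secreted product of lung epithelium. Pdk4 was most like the nuclear receptor gene Nr4a3 (0.9865), whose log2 fold change was -2.78, followed by Grpel1 and Zfp442. Gpihbp1 was most like Camk1 (0.9939), Atf1 and the endothelial VEGF receptor gene Flt1 (0.9881).

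Lpl stood beside the matrix genes Col5a1 (0.9924) and Col6a6 (0.9872) and, above both, Tnnt3 (0.9936). Angptl4 stood beside Adamtsl4 (0.9984), the arterial connexin gene Gja5 (0.9894) and Gspt2 (0.9892). Acsl1 was nearest to Cyb5r1, Snx19 and Vmp1, Pparg to Cpt1c, Rac2 and Coch, Fabp5 to Ciao2a, Ffar2 and Pygl, Fabp4 to Psmb5, Gfm1 and Gm10044, and Cpt1a to Dnaaf3, Tdg and Ap2m1. With 14625 genes and 6 libraries, values of r near 1 arise for some gene beside any pattern.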
